A study of Mus musculus with 8 samples.

Results

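Annexins and galectins were followed in pancreatic islets of Tcf1 knock-out mice and of wild type mice. The set held 10 genes, the annexins Anxa1 to Anxa7 and the galectins Lgals1, Lgals3 and Lgals9, out of 13675 genes named on the arrays. The members were every probe set that the array annotation gives to these genes under a current or older symbol. A probe set is a group of short oligonucleotides on the array that together report on a transcript. There were 16 of them, 14 on the Affymetrix mouse array MG-U74A and 2 on its companion MG-U74B. Total islet RNA was measured on 2 knock-out and 2 wild type arrays of each type, which the labels call biological replicates. The labels name Tcf1 as the gene knocked out, and do not give the allele, strain, age or sex of the mice, or whether islets of several animals were pooled. The wild type islets carry no listed change. Tcf1 itself was not analysed here, and the genotypes are those of the labels.

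Annexins are cytosolic proteins that bind acidic phospholipids of membranes when calcium rises. They take part in membrane repair, in vesicle traffic and in linking membranes to the cortical actin skeleton. Galectins are lectins that bind beta-galactosides on glycoproteins, both outside the cell and on damaged vesicles inside it. In the pancreas, members of both families are made by epithelial, mesenchymal and immune cells as well as by endocrine cells, and Lgals3 is also known as Mac-2, a macrophage antigen.

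In knock-out islets 7 of the 9 member genes tested on MG-U74A were higher than in wild type islets, and none was lower. Lgals1 rose 7.34-fold, Anxa1 4.09-fold on its brightest probe set (6.72-fold and 7.74-fold on the others), Lgals9 3.78-fold, Lgals3 3.36-fold, Anxa6 2.84-fold, Anxa2 2.62-fold and Anxa3 1.74-fold in mean intensity. Anxa4 and Anxa5 did not pass the test, and no Anxa7 probe set on this array type was bright enough to be tested. The test was limma's moderated test over all 7516 tested probe sets of the array type, two-sided, with Benjamini-Hochberg adjustment and a threshold of 0.05. By probe set, 9 of 11 tested were higher and 0 lower, and at an unadjusted p under the same threshold 10 were higher and 0 lower. Of all tested probe sets on MG-U74A 23.9% were called higher and 29.0% lower. The median log2 change of the 11 member probe sets was 1.72, against -0.09 over all tested. A probe set was tested where its mean over the 4 arrays reached 62.5, and 1 Anxa1 probe set passed only through its knock-out arrays, so these counts are a description of the members that passed. In RNA from whole islets, more cells of a type and more RNA per cell cannot be told apart.

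The promoters of 4 of the genes that were higher are shown because these members moved in the same direction and a reference sequence was at hand for them. Each is the stretch of 250 bases before the annotated start, 5′ to 3′ in the direction of the gene, from RefSeq on mouse assembly GRCm38.p6. Capitals mark matches on either strand, overlaps allowed, to 3 short motifs. The TATA box was searched as TATAAA. The GC box, which Sp1-type factors bind, was searched as GGGCGG. The site of the AP-1 factors was searched as TGANTCA, with N for any base.
Anxa1, chr19:20390672-20390921, minus strand: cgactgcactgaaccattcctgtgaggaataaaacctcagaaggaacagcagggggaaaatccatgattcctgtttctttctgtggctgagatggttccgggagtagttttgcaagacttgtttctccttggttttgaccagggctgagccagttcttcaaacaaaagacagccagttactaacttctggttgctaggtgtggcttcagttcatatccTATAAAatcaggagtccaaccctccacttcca
Anxa2, chr9:69453433-69453682, plus strand: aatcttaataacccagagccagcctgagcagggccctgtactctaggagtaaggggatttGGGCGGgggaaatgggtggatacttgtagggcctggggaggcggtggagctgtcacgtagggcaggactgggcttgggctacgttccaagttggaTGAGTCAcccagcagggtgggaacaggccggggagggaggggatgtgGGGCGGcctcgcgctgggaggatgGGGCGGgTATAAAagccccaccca
Lgals3, chr14:47373610-47373859, plus strand: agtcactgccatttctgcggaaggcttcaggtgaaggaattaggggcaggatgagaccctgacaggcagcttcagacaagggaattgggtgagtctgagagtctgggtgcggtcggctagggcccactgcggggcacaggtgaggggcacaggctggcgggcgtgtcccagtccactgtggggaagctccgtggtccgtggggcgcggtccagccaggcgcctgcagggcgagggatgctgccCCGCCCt
Lgals9, chr11:78984925-78985174, minus strand: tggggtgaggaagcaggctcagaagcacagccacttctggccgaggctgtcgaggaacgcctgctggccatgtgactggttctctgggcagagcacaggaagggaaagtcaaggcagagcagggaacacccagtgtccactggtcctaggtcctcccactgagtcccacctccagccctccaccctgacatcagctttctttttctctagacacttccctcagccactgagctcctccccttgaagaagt
The Anxa2 window held 1 TATA box with its first base 17 bases before the start, 1 AP-1 match that began 95 bases before it, and 3 GC boxes. The Anxa1 window held 1 TATA box, 32 bases before the start, and none of the other motifs. The Lgals3 window had 1 GC box, and the Lgals9 window had no match to any of these letters. Among 32851 promoter windows of the same length, 12.4% held the TATA box, 32.7% the GC box and 6.75% the AP-1 letters. The windows of Anxa4 and Anxa5, which did not pass the test, held no match, and both Anxa7 windows held GC boxes. In all, 7 of the 10 members had at least 1 window, and Anxa3, Anxa6 and Lgals1 had none in the table used. A match describes letters in a window and is not a measured site.

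Lgals1, the small galectin that forms dimers and is abundant in mesenchymal cells, had the largest log2 change of the members at the constant used. With a floor in place of the constant it was 2.88, against 2.97 for the Anxa1 probe set 161703_f_at, and that probe set also has the larger ratio of means, 7.74 against 7.34. Its probe set 99669_at read 5809 and 5546 on the knock-out arrays, against 839 and 708 on the wild type arrays. The ratio of a knock-out to a wild type array was between 6.61 and 8.21 over the 4 pairings. The log2 change was 2.84 ± 0.09 (SE), with a 95% interval of 2.59 to 3.09 and an adjusted p of 2.11e-04 by limma, and it ranked 131 from the largest rise of 7516. Log2 changes are knock-out minus wild type on intensity plus 25, which understates the change where a level is low. A second Lgals1 probe set, 164180_s_at on MG-U74B, was not bright enough to be tested. It read -58.4 and 178 in knock-out and -114 and -67.7 in wild type islets, at or below 0 on 3 of 4 arrays, so MG-U74B gave no measure of the change.

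Lgals3, a galectin with a collagen-like tail that macrophages and many epithelia make, read 2641 and 2912 on the knock-out arrays and 847 and 806 on the wild type arrays (95706_at). Both knock-out arrays lay far above both wild type arrays, with ratios between 3.12 and 3.61. The log2 change was 1.72 ± 0.06 (95% interval 1.54 to 1.89, adjusted p = 2.78e-04 by limma). Lgals9 is a galectin with a pair of carbohydrate-binding domains in tandem and a ligand of Tim-3, a surface protein of T cells. It read 667 and 888 in knock-out islets and 187 and 225 in wild type islets (103335_at). The groups did not overlap, and the ratios between single arrays spread from 2.96 to 4.76. Both knock-out arrays lay above both wild type arrays in 35.2% of all tested probe sets of MG-U74A, as for Lgals3 and Lgals9. The log2 change was 1.79 ± 0.17 (95% interval 1.31 to 2.27, adjusted p = 0.00244 by limma). The intervals of Lgals3 and Lgals9 overlap, and both lie below that of Lgals1. The other Lgals9 probe set, 161301_f_at, was too dim to be tested, with 50.4 and 26.9 in knock-out and -1.80 and 8.5 in wild type islets. It moved in the same direction, and without the filter on dim probe sets its adjusted p was 0.0998 by limma.

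**Figure D1:**
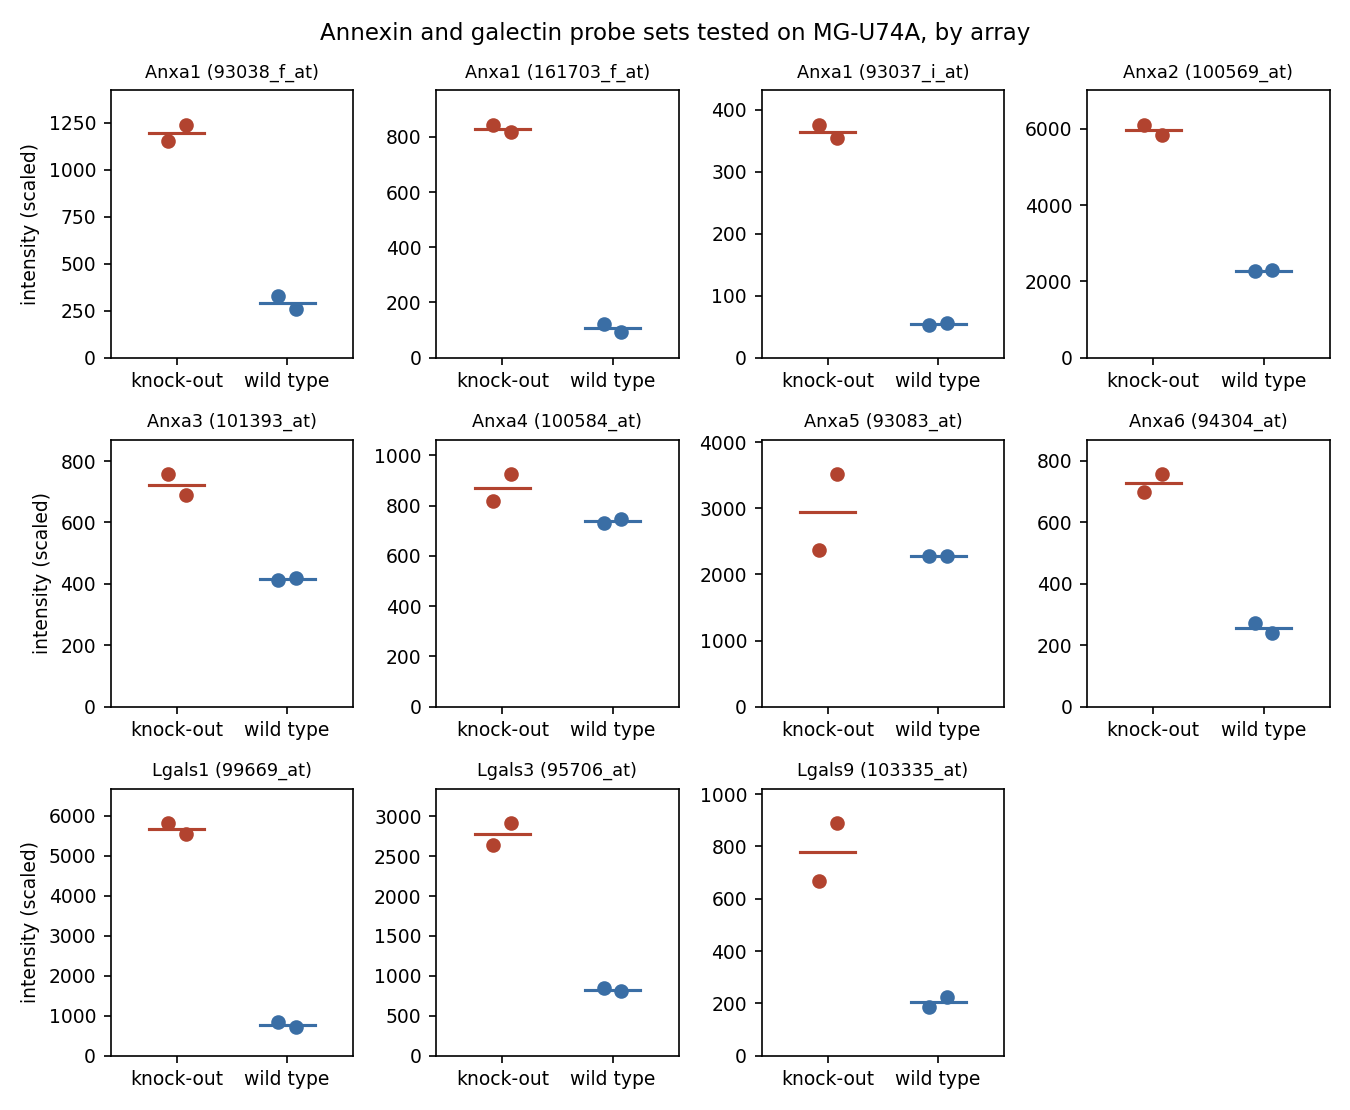
Scaled intensity (linear, from 0) of the 11 annexin and galectin probe sets tested on MG-U74A, with 1 point per array and a line at the mean of 2 arrays, knock-out left and wild type right. On every panel both knock-out points lie above both wild type points, by a wide margin for Lgals1 and by little for Anxa4 and for 1 knock-out array of Anxa5. This arrangement was found in 35.2% of all tested probe sets of MG-U74A.

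Anxa1, which glucocorticoids induce and which dampens leukocyte entry through formyl peptide receptors, was measured by 3 probe sets that all rose. The brightest, 93038_f_at, read 1150 and 1235 in knock-out islets and 326 and 257 in wild type islets. The second, 161703_f_at, read 842 and 816 in knock-out islets, against 122 and 92.8 in wild type islets. The third, 93037_i_at, read 374 and 354 in knock-out islets, against 51.9 and 56.5 in wild type islets, and its wild type mean of 54.2 is under the level required for testing. The groups did not overlap on any of the 3, with knock-out above wild type as in 35.2% of all tested probe sets. Their log2 changes were 1.95 ± 0.13, 2.70 ± 0.13 and 2.30 ± 0.12, with adjusted p of 8.58e-04, 4.54e-04 and 5.47e-04 by limma. The direction was shared and the size was not settled, since the ratios of means ran from 4.09 to 7.74. The 3 share a gene and are not replicates of the condition. Names ending in _f_at mark probe sets whose oligonucleotides can also match related sequences.

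Anxa2, which pairs with the S100 protein S100a10 at the plasma membrane and binds plasminogen activator there, read 6087 and 5833 in knock-out islets and 2259 and 2286 in wild type islets (100569_at). Arrays of a genotype were close together, so this change had the smallest adjusted p of the members, 1.48e-04 by limma, at a log2 change of 1.38 ± 0.04. Anxa6, a large annexin with a duplicated core that organises membrane cholesterol, read 699 and 756 in knock-out islets, against 272 and 241 in wild type islets (94304_at). Its log2 change of 1.42 ± 0.09 had an interval of 1.17 to 1.67 that contains the value for Anxa2 (adjusted p = 8.19e-04 by limma). Both were higher on each knock-out array than on either wild type array, as were 35.2% of all tested probe sets of MG-U74A.

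Anxa3, known as an inhibitor of phospholipase A2 and found in neutrophils and in some epithelia, had the smallest change of those that passed. It read 757 and 690 (knock-out) and 413 and 418 (wild type) on 101393_at. The groups did not overlap, with knock-out above wild type as in 35.2% of all tested probe sets. The log2 change was 0.76 ± 0.07 (95% interval 0.57 to 0.95, adjusted p = 0.00196 by limma). That interval lies below those of Anxa2 and Anxa6. At this size the change ranked 1181 of 7516 from the largest rise.

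Anxa4 and Anxa5 did not pass the test, and neither is shown to be at its wild type level. Anxa4, an annexin of secretory epithelia, read 818 and 924 in knock-out islets and 731 and 748 in wild type islets (100584_at). Its log2 change was 0.23 ± 0.07 (95% interval 0.02 to 0.43, adjusted p = 0.0666 by limma). The call depends on the setting: the adjusted p was 0.0350 with quantile normalization and 0.0152 without knock-out replicate 1, where the change was 0.31. A fit with 1 knock-out array assumes that it varies like the wild type pair, which here lay close together. Anxa5, the phosphatidylserine-binding annexin used as a stain for dying cells, read 2364 and 3515 in knock-out islets and 2278 and 2287 in wild type islets (93083_at). Only knock-out replicate 2 was clearly above the wild type pair. The log2 change was 0.33 ± 0.20 (95% interval -0.22 to 0.88, adjusted p = 0.231 by limma). It was 0.62 without knock-out replicate 1 (adjusted p = 0.00295) and 0.05 without knock-out replicate 2 (adjusted p = 0.0996), so 1 array decides the value. In these fits too the probe set's own spread is that of the wild type pair alone. It is moderated by limma toward that of all probe sets, and the SE was 0.02 in each. The upper end of the Anxa5 interval lies below the lower ends of those of Lgals1, Lgals3, Lgals9, Anxa1, Anxa2 and Anxa6, and overlaps that of Anxa3.

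Anxa7, or synexin, is known for fusing chromaffin granule membranes, and its 3 probe sets did not give a common direction. On MG-U74A 93587_at read -17.0 and 13.5 in knock-out islets and 81.4 and 86.6 in wild type islets. Its other probe set on that array type, 161533_at, read 52.2 and 18.7 in knock-out islets and -1.40 and 12.6 in wild type islets. The first was lower and the second higher in knock-out islets, both too dim to be tested. Without the filter, 93587_at had a log2 change of -1.81 ± 0.28 (adjusted p = 0.0375) and 161533_at one of 0.92 ± 0.43 (adjusted p = 0.254) by limma. With a knock-out array below 0 the size of the first depends on the constant added. On MG-U74B 116056_at was tested and read 157 and -73.9 in knock-out islets, against 190 and 150 in wild type islets. Its knock-out mean of 41.5 is under the level required for testing. It passed the filter only through its wild type arrays (mean 170), so a fall was built in. The groups overlapped, and the log2 change of -1.53 ± 1.01 (95% interval -4.16 to 1.1) did not pass (adjusted p = 0.338 by limma). It was -0.10 without knock-out replicate 2 and -2.96 without knock-out replicate 1. This was the only member probe set tested on MG-U74B, with 0 called at an unadjusted p under 0.05 as well, where 8.59% of 7861 tested probe sets were called higher and 8.87% lower.

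**Figure D2:**
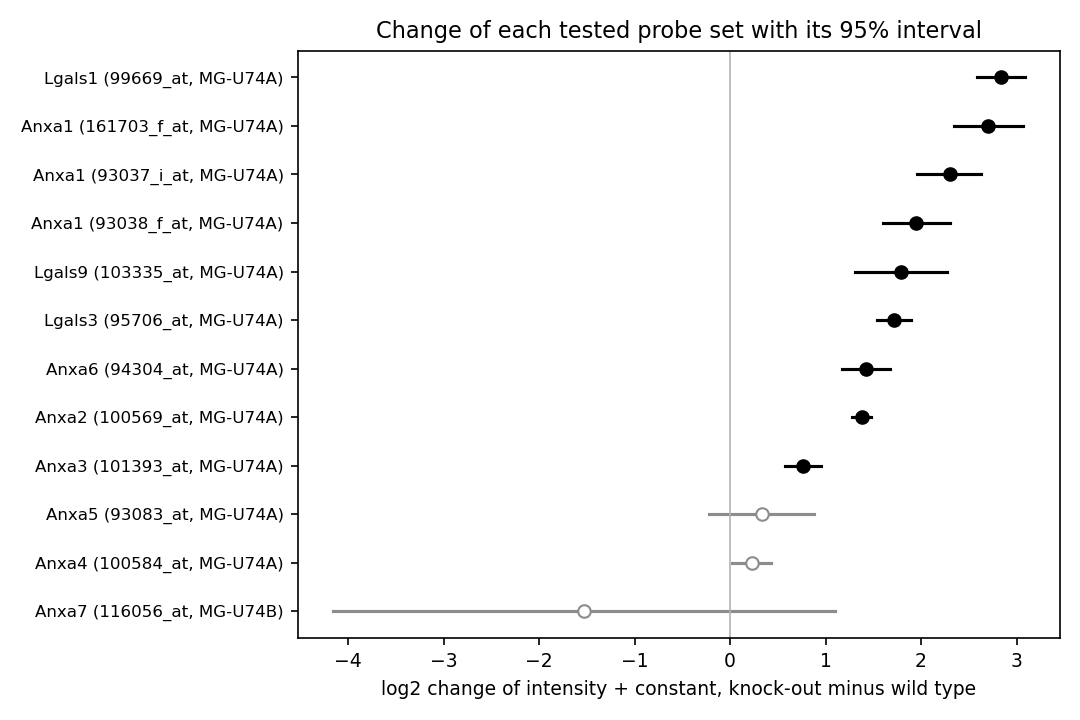
Log2 change (knock-out minus wild type, horizontal axis) of the 12 tested annexin and galectin probe sets with 95% intervals from limma, filled where the adjusted p passed the threshold and open where it did not. The Lgals1 and Anxa1 probe sets lie furthest to the right, Anxa5 and Anxa4 near 0, and the interval of Anxa7 on MG-U74B spans -4.16 to 1.1.

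**Figure D3:**
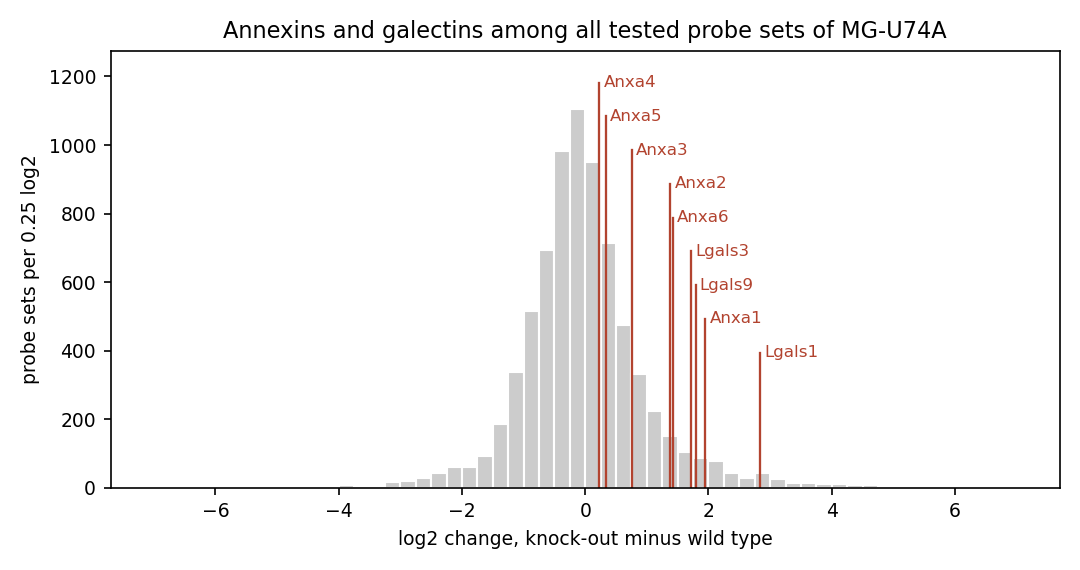
Histogram of the log2 changes (knock-out minus wild type) of all 7516 tested probe sets of MG-U74A, in bins of 0.25 (vertical axis: probe sets per bin), with a line at the brightest tested probe set of each of 9 annexin and galectin genes. Line heights only separate the labels. The lines lie between 0.23 (Anxa4) and 2.84 (Lgals1), to the right of the median of all probe sets at -0.09.

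In the order of their changes on MG-U74A, by the brightest probe set of each gene, Lgals1 came first and Anxa1, Lgals9, Lgals3, Anxa6, Anxa2, Anxa3, Anxa5 and Anxa4 followed. Neighbours from Anxa1 to Anxa2 in this order have overlapping intervals, as do Anxa3 and Anxa5, and Anxa5 and Anxa4. Gaps without overlap stand between Lgals1 and Anxa1 and between Anxa2 and Anxa3. The intervals of the other 2 Anxa1 probe sets, 2.34 to 3.07 (161703_f_at) and 1.96 to 2.63 (93037_i_at), do overlap that of Lgals1. On all 11 tested probe sets of this array type both knock-out arrays lay above both wild type arrays, an arrangement found in 35.2% of all tested. Levels of different member genes were not compared, since each probe set binds with its own strength.

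Other members of both families and their known partners moved both ways. Of 28 such genes tested on MG-U74A 17 were higher and 4 lower, with a median log2 change of 0.75, beside 23.9% higher and 29.0% lower among all tested. Lgals4, a galectin of the gut epithelium, read 842 and 832 in knock-out islets and 157 and 130 in wild type islets (2.36 ± 0.11, adjusted p = 3.80e-04 by limma). Lgals2, another gut galectin, rose too, with a log2 change of 0.73 ± 0.14 (adjusted p = 0.0162 by limma). Lgals3bp, a secreted glycoprotein that galectins bind, went the other way and read 824 and 910 in knock-out islets against 1723 and 1765 in wild type islets. Its log2 change of -0.99 ± 0.06 was the largest fall in the list (adjusted p = 7.94e-04 by limma). Anxa8 did not pass (0.06 ± 0.16, adjusted p = 0.753 by limma), and Anxa10, Lgals7 and the Lgals8 probe set of this array type were too dim to be tested. Lgals8 read 144 and 54.9 in knock-out islets and 6.0 and 11.1 in wild type islets. Anxa10 read 33.8 and 50.6 in knock-out islets and 67.5 and 80.6 in wild type islets, and Lgals7 was below 0 on every array.

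Among the partners, S100a10, the partner of Anxa2, read 1110 and 1095 in knock-out islets and 487 and 495 in wild type islets on 92539_at. Its log2 change was 1.13 ± 0.05 (adjusted p = 3.27e-04 by limma), beside 1.38 ± 0.04 for Anxa2, and the difference between the genes was not tested. A dimmer S100a10 probe set, 162340_r_at, read 104 and 151 in knock-out islets and 126 and 111 in wild type islets and did not pass (adjusted p = 0.810 by limma). Another, 108902_at on MG-U74B, was listed below 0 on every array and was not tested. S100a6, which also binds annexins, read 3528 and 3287 in knock-out islets, against 1060 and 1061 in wild type islets (1.66 ± 0.05, adjusted p = 1.80e-04 by limma). The 3 largest rises were of Cd44, Ptprc and Cd3d, all of which passed the filter only through their knock-out arrays, so a rise was built in. Cd44, a hyaluronan receptor, read 325 and 306 in knock-out islets and was listed below 0 on both wild type arrays (3.76 ± 0.18, adjusted p = 4.40e-04 by limma), so the size depends on the constant added. Ptprc, the leukocyte antigen CD45, and Cd3d, a chain of the T cell receptor complex, rose by 2.80 ± 0.15 and 2.77 ± 0.38 on the log2 scale (adjusted p = 5.08e-04 and 0.00603 by limma). Besides Lgals3bp, the lower partners were Ctnnb1 (-0.85 ± 0.03), Lamp2 (-0.71 ± 0.04) and Lamp1 (-0.64 ± 0.06), of which Lamp1 and Lamp2 are lysosomal membrane glycoproteins that carry galectin ligands.

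**Figure D4:**
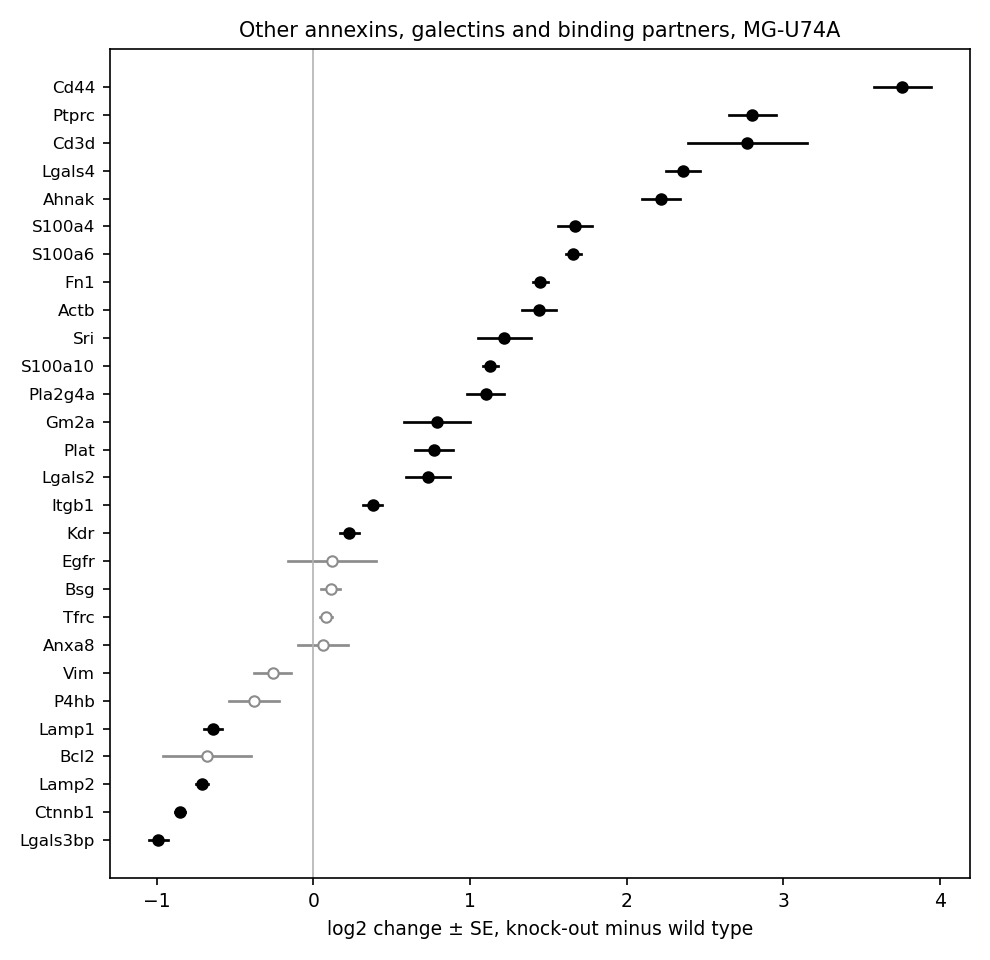
Log2 change ± SE (knock-out minus wild type, horizontal axis) of 28 other annexin, galectin and partner genes tested on MG-U74A, filled where the adjusted p passed the threshold and open where it did not. Cd44, at 3.76, is at the top, and Lgals3bp, at -0.99, is at the bottom.

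On MG-U74B 12 genes of this list were tested, of which 2 were higher and 1 lower. Among all tested probe sets of this array type 8.59% were called higher and 8.87% lower. Cd44 there read 3011 and 3460 in knock-out islets and 2170 and 2330 in wild type islets (0.52 ± 0.11, adjusted p = 0.0427 by limma), where MG-U74A gave 3.76 on another probe set. Spn, the leukocyte sialoglycoprotein CD43, rose by 0.74 ± 0.15 (adjusted p = 0.0331), and Tfrc, the transferrin receptor, fell by 1.09 ± 0.16 on the log2 scale (adjusted p = 0.0186). Tfrc on MG-U74A did not pass (0.08 ± 0.04, adjusted p = 0.164 by limma). None of the 3 calls on MG-U74B is held by every array: the count was 0 without knock-out replicate 1, without wild type replicate 1 or without wild type replicate 2, and 1 without knock-out replicate 2. Anxa9, Anxa13 and Lgals8 did not pass on this array type, with 0 of these 3 at an unadjusted p under 0.05 by limma.

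The changes of the members stood beside changes of whole cell type marker lists on the same MG-U74A arrays. Of all tested probe sets 23.9% were called higher and 29.0% lower. Macrophage and dendritic cell markers were higher in 11 of 11 tested genes, and their summed intensity, with values below 0 set to 0, was 15443 and 15398 in knock-out islets and 5193 and 5045 in wild type islets. Fcer1g and Itgam, also on this list, were too dim to be tested and were listed at or below 0 on both wild type arrays. Lymphocyte markers were higher in 7 of 7 tested genes, with sums of 21677 and 20948 in knock-out islets and 4202 and 4140 in wild type islets. Of the tested ones Cd79a was at or below 0 in wild type. Cd2 and Cd3e, too dim to be tested, were also at or below 0 in wild type, and Cd3e in knock-out as well. Fibroblast and stellate cell markers were higher in 9 and lower in 2 of 13, with sums of 18646 and 19734 in knock-out islets and 6448 and 6423 in wild type islets, and Acta2 at or below 0 in wild type. The ratios of these sums were 3.01, 5.11 and 2.98. Neutrophil and blood cell markers were higher in 5 of 6 and summed to 2735 and 2614 in knock-out islets and 978 and 908 in wild type islets. Endothelial markers were higher in 6 and lower in 1 of 10, with sums of 5565 and 5343 in knock-out islets and 4722 and 4797 in wild type islets. Of the markers tested, 2 of lymphocytes, 2 of fibroblasts and stellate cells, 2 of neutrophils and blood cells and 1 of endothelial cells passed the filter only through their knock-out arrays, where a rise was built in, and none of macrophages did. The part of these cell types in the changes of the annexins and galectins was not tested.

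Epithelial and endocrine marker lists went the other way. Acinar markers were lower in 6 of 6 tested genes, with sums of 5270 and 4638 in knock-out islets and 36681 and 36970 in wild type islets, and 1 of them was tested through its wild type arrays alone. Duct cell markers were lower in 5 and higher in 2 of 7, with sums of 6672 and 6772 in knock-out islets and 10946 and 10293 in wild type islets. Beta cell markers were lower in 8 of 9 and summed to 47643 and 42978 in knock-out islets and 67406 and 68331 in wild type islets, and 2 of them passed the filter on dim probe sets only through their wild type arrays. Most of these sums came from Ins2 and Iapp, which were called lower but fell least, and the median log2 change of the 9 was -2.45. Ins2 read 29623 and 26557 in knock-out islets and 33667 and 34052 in wild type islets, and Iapp, the islet amyloid gene, 15485 and 14092 in knock-out islets and 19797 and 20141 in wild type islets. Pdx1 read 23.1 and -6.1 in knock-out islets and 155 and 264 in wild type islets, and Slc2a2 31.5 and 13.2 in knock-out islets and 705 and 662 in wild type islets. The hormone markers of islets were thus measured in both genotypes, and Pdx1 and Slc2a2 were near background in knock-out islets. Cd3d, Cd2, Kdr and Vim are in the partner list and in a marker list.

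**Figure D5:**
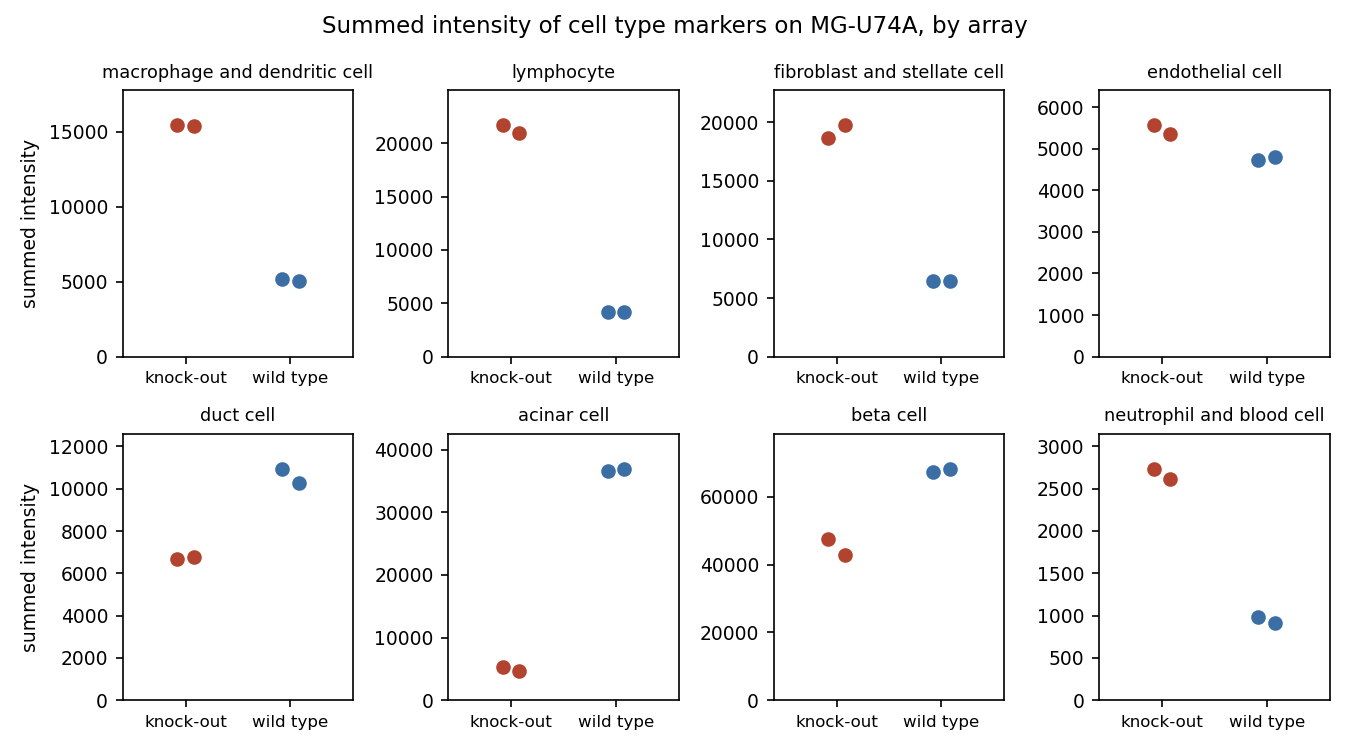
Summed intensity (linear, from 0, values below 0 set to 0) of 8 lists of cell type markers on MG-U74A, with 1 point per array, knock-out left and wild type right. Macrophage, lymphocyte, fibroblast and blood cell sums are higher in knock-out islets, endothelial sums slightly so, and duct, acinar and beta cell sums are lower.

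Control probe sets differed with the genotype as well. Gapdh is reported by probe sets at its 3′ and 5′ ends, and their ratio rises as RNA is less complete. It was 0.949 and 0.937 in knock-out arrays of MG-U74A, against 3.15 and 3.22 in wild type arrays. MG-U74B gave 0.900 and 0.914 in knock-out arrays and 3.07 and 3.12 in wild type arrays. The same ratio of actin differed less, at 1.16 and 1.12 in knock-out and 1.48 and 1.45 in wild type arrays of MG-U74A. The mean of the spiked control BioB was 3596 to 4044 in knock-out and 171 to 195 in wild type arrays of MG-U74A. These measures run with the genotype, so their part in the changes of the annexins and galectins and that of the genotype cannot be told apart. Spearman correlations across tested probe sets of MG-U74A were 0.950 between the knock-out arrays, 0.977 between the wild type arrays and 0.730 to 0.736 between genotypes, and no array stood apart from its pair.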

How the data were processed

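The authors deposited linear intensities for each probe set, already scaled to 1 trimmed mean (2% off each end) for all arrays of a type, 250.2 on MG-U74A and 250.1 on MG-U74B. Their software is not stated in the labels or files at hand. Arrays were rescaled to that mean (a change of at most 0.00784%), negative values were set to 0, and 25 (10% of the trimmed mean) was added before log2. Control probe sets and those with a mean under 62.5 were left out. Genotypes were compared per array type with lmFit and eBayes with a variance trend (limma 3.58.1, R 4.3.3), with no replicate block. The prior degrees of freedom were 2.11 and 2.82. With 2 arrays in each group an exact permutation test can reach only p = 0.333, so limma's p-values borrow their precision from the spread of all probe sets. That spread is between arrays and may be technical in part, and the number of arrays limits the precision.

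Of 16 member probe sets 12 were tested. A gene was counted by its brightest tested probe set. The array annotation gave a single symbol to 10855 probe sets on MG-U74A (several to 396, none to 1237) and to 10603 on MG-U74B (178 and 1696), of which 10839 and 10572 had a current name in GRCm38.p6. The members, lists, tests and alternatives were chosen with earlier results of these data known. Of the relatives and partners, the 3 largest changes each way per array type were named by rule, and others named were chosen after their values were seen. The procedure was also run on simulated data. Far fewer probe sets were changed there than were called here, so that run does not vouch for these calls. Differences between replicates 1 and 2 correlated at 0.024 between genotypes on MG-U74A and 0.032 on MG-U74B. No shared effect of the replicate number was seen, but with 2 arrays per genotype this cannot exclude that samples were paired.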

Additional observations from a re-analysis of the deposited data

How the results depend on the processing

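The alternatives were a constant of 4% or 20% of the trimmed mean, a floor in place of the constant, no filter or a filter of 50%, quantile normalization, no variance trend, a replicate block and leaving out each array. Over 143 combinations of a tested member probe set with an alternative, 140 kept direction and side of the threshold, 3 newly passed (Anxa4 with quantile normalization, and Anxa4 and Anxa5 without knock-out replicate 1), and none reversed. The 2 passes without knock-out replicate 1 come from fits in which the lone knock-out array is assumed to vary like the wild type pair. On MG-U74A the count of higher member probe sets was 9 to 11 and of higher genes 7 to 9 when 1 array was left out, and a gene's mean over its probe sets also gave 7. Without the filter 1 probe set and 1 gene were called lower on MG-U74A, Anxa7 93587_at, since it was then tested. The family and partner calls numbered 16 to 22 without 1 array on MG-U74A. On MG-U74B they were 0 without the filter and 0 without the variance trend, against 3, and 0 to 1 without 1 array. The cause of the trend's effect was not tested. Without wild type replicate 1 or without wild type replicate 2 no probe set of MG-U74B was called at all (0 higher, 0 lower by limma).
Over all probe sets of MG-U74A, 1796 were called higher and 2178 lower, against 1203 and 1108 without wild type replicate 1 and 1182 and 1082 without wild type replicate 2. On MG-U74B 675 and 697 were called, against 332 and 432 without the filter, 295 and 343 without the variance trend, 69 and 243 without knock-out replicate 1 and 139 and 399 without knock-out replicate 2.

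With the replicate number as a block, 9 member probe sets and 7 member genes were higher on MG-U74A. In that fit 20 family and partner genes were called there and 2 on MG-U74B. Over all tested probe sets it called 1646 of 7516 higher and 1982 lower on MG-U74A. On MG-U74B it called 587 of 7861 higher and 620 lower. In the labels the samples of the genotypes share only a replicate number.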
